A study of Mus musculus with 27 samples.

Results

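Transcripts of 9 genes that make, store, take up, break down or specify dopamine were measured in RNA sequencing libraries of mouse frontal cortex and striatum. The genes were chosen by name, Th, Ddc, Slc6a3, Slc18a2, Gch1, Dbh, Maoa, Maob and Nr4a2, and their Ensembl identifiers matched 9 of the 52636 rows of the count tables. Of 27 libraries, frontal cortex had 6 of wild-type and 6 of Igf2enh-/- mice, with 3 from females and 3 from males in each genotype. Striatum had 7 of wild-type mice, 3 from females and 4 from males, and 8 of Igf2enh-/- mice, 4 from each sex. All animals were adults aged about 2.5 months. The Igf2enh-/- animals were homozygous for the loss of 4920 bases between H19 and Igf2 on chromosome 7, a mutation made by gene targeting in ES cells on the 129S1 background. CRE expressed from Hprt took out the neo cassette used for targeting, so the mutant allele also carries a single loxP sequence. The RNA was total RNA from pieces of tissue, so that in every result given here fewer cells of a type and less RNA per cell cannot be told apart. Libraries are named by the number that opens their label.

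Dopamine is made in neurons whose cell bodies lie mainly in the midbrain. Their axons fill the striatum and, more sparsely, the frontal cortex, while the mRNA of their enzymes stays largely in the midbrain. Tyrosine hydroxylase (Th) turns tyrosine into L-DOPA in the rate-limiting step, with tetrahydrobiopterin made from GTP by the pathway that GTP cyclohydrolase (Gch1) opens. DOPA decarboxylase (Ddc) turns L-DOPA into dopamine, the vesicular monoamine transporter (Slc18a2) loads it into vesicles, and the dopamine transporter (Slc6a3) takes it back up. Dopamine beta-hydroxylase (Dbh) turns dopamine into noradrenaline, the monoamine oxidases Maoa and Maob break monoamines down in many cell types, and the nuclear receptor Nr4a2 is needed for dopamine neurons to form and is also made by other neurons.

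The study asked whether the deleted enhancer bears on the dopamine system, and Th lies on the same chromosome as the deletion. In the NCBIM37 coordinates of the labels and of GENCODE vM1, the nearest end of Th is 277407 bases from the deleted segment. The other 8 genes lie on other chromosomes. In GRCm38.p6 coordinates Th spans chr7:142892779-142899995, Ddc chr11:11814101-11898144, Slc6a3 chr13:73536128-73578672, Slc18a2 chr19:59260878-59296012, Gch1 chr14:47153895-47189413, Dbh chr2:27165507-27183204 and Nr4a2 chr2:57106830-57124003. Maoa (chrX:16619698-16687812) and Maob (chrX:16709281-16817366) are neighbours on the X chromosome. RefSeq places other transcripts over Ddc (2 long non-coding RNAs), Gch1 (a pseudogene) and Nr4a2 (LOC105244150), and since the strand setting of the counting is not given in the sources used here, reads of these cannot be told apart from reads of the named gene.

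The promoters of 8 of the 9 genes were found in the RefSeq promoter table (GRCm38.p6), each as 250 bases before and 50 bases after a start of transcription. The cyclic AMP response element TGACGTCA, the site of CREB-family factors, was searched on both strands, as was AAGGTCA, the core of the site that Nr4a receptors bind as monomers. The first occurred in 1.79% of all 32851 promoters and the second in 4.72%. Among the dopamine genes TGACGTCA was in the promoters of Th, starting 45 bases before the start site, and of Slc18a2, starting 4 bases before it. AAGGTCA was found once, on the opposite strand of a Ddc promoter, 73 bases before the start. In the fit over all libraries Th and Slc18a2 had the largest log2 differences between the regions. Within wild-type mice Slc6a3, whose promoter lacks the element, had a larger one (3.12) than Th (2.41). The Th and Slc18a2 sequences are shown since these genes were the members that hold this element. They run from 120 bases before the start to 4 bases after it, with TGACGTCA in capitals, for Th on the minus strand of chr7:142899992-142900115 and for Slc18a2 on the plus strand of chr19:59260758-59260881:
Th: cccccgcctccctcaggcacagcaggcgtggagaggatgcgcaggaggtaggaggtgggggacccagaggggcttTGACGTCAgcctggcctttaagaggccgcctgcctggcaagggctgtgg
Slc18a2: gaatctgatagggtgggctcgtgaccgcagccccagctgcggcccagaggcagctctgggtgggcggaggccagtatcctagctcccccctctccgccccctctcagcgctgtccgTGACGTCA
A match of letters does not show that a factor was bound there in these tissues.

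The libraries held 23686945 to 33926904 counts, and 0 pairs of libraries were identical. Levels are CPM, the counts scaled to a common library size by the TMM method (trimmed mean of M-values), with SDs over libraries as errors. A list of 12 medium spiny neuron genes (Drd1, Drd2, Adora2a and Ppp1r1b first) summed to 4666 to 12780 CPM in striatum and to 343.5 to 413.2 CPM in frontal cortex. A list of 10 cortical projection neuron genes (Slc17a7, Tbr1 and Neurod6 among them) summed to 640.8 to 1487 CPM in striatum and 2343 to 2612 CPM in frontal cortex. Of these genes 9 were lower in striatum and 1, Bcl11b, was higher. Bcl11b was at 241.3 to 606.8 CPM in striatum and 60.2 to 95.5 CPM in frontal cortex, so the striatal sums are not a measure of cortical neurons alone. Some libraries stood apart. Igf2enh-/- frontal cortex library 9 held 187.5 CPM of a list of 14 olfactory bulb genes, against 83.7 to 94.8 CPM in the other 11 frontal cortex libraries, and was the highest frontal cortex library for 13 of the 14. Its Eomes, a marker of mitral and tufted cells, was at 5.79 CPM, against at most 0.0397 CPM in the others. Wild-type striatum library 20 was the lowest striatal library for 12 of the 12 medium spiny neuron genes. Igf2enh-/- striatum library 15 held 4537 CPM of a list of 10 choroid plexus genes, while the other 14 from striatum had 171.3 to 367 CPM. Igf2 itself, the gene beside the deletion, had a log2 difference between Igf2enh-/- and wild-type mice of 0.77 in frontal cortex (adjusted p = 0.0285) and 0.89 in striatum (adjusted p = 0.386). In each region leaving out 1 library moved Igf2 across the threshold, and no other library was left out for this gene. In frontal cortex the number of all genes called was 53, and 8 to 96 with 1 library left out. Without library 9 the frontal cortex value was 0.71 (adjusted p = 0.0776). In striatum library 15 held 256.9 CPM of Igf2, and without it the log2 difference was 0.46 (adjusted p = 0.00899), with 38.4 ± 3.85 CPM (SD, n = 7) in wild-type and 52.5 ± 5.61 CPM (SD, n = 7) in Igf2enh-/- libraries. The striatal genotypes did not overlap for Igf2 with or without library 15, as was so for 0.179% of all genes with it.

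Per exon length, the levels of the 9 genes spread widely within each region. In frontal cortex the order by mean level per kb of exon was Maoa (8.12 ± 0.596 CPM per kb, SD, n = 12), Maob (6.85), Nr4a2 (3.00), Ddc (0.776), Th (0.531), Gch1 (0.466), Dbh (0.0667), Slc18a2 (0.0386) and Slc6a3 (0.0113). Without library 9 Th fell behind Gch1, at 0.375 CPM per kb. Neighbours in this order had overlapping ranges, except that Maob lay wholly above Nr4a2, Nr4a2 above Ddc, and Gch1 above Dbh. In striatum the order was Maoa (8.83 ± 0.397 CPM per kb, SD, n = 15), Nr4a2 (8.57), Maob (7.62), Th (2.10), Ddc (1.69), Gch1 (0.436), Slc18a2 (0.328), Slc6a3 (0.0440) and Dbh (0.0268). There Maob lay wholly above Th and Ddc wholly above Gch1, while the other neighbours overlapped. Maoa and Maob, which many cell types make, were among the 3 highest in both regions, and the transporters and Dbh, which mark monoamine neurons, were the 3 lowest.

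**Figure D1:**
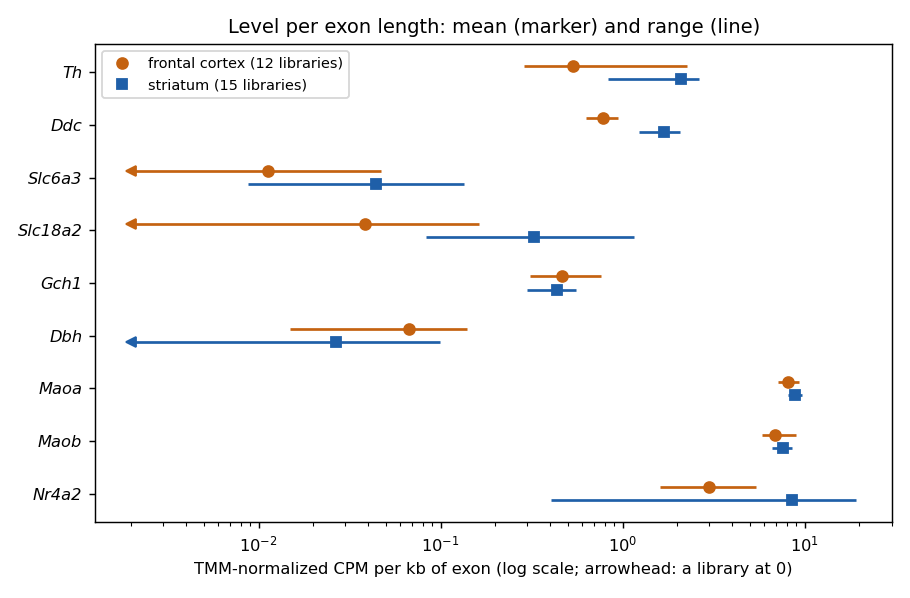
Level of each gene per kb of exon on a log axis, with the mean over 12 frontal cortex libraries (circles) and 15 striatum libraries (squares) and the range over libraries (lines; an arrowhead marks a library at 0). Maoa and Maob have means of 6.85 to 8.83 CPM per kb in both regions, and Slc6a3 and Dbh stay at or under 0.1405 CPM per kb in every library.

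Between the regions, 8 of the 9 genes were called at an adjusted p under 0.05 in edgeR's quasi-likelihood test over all 27 libraries, 7 higher and 1 lower in striatum. Of all 20836 genes tested, 68.3% were called, so that a call alone says little about a member. Slc6a3 and Dbh reached the filter, a mean of 0.1 CPM over the libraries fitted, only through the region where they were higher. The median log2 difference was 1.11 over the 9 genes and 0.01 over all genes tested. Within wild-type mice 5 of 9 were called (55.1% of all genes), and within Igf2enh-/- mice 5 of 8 (57.9% of all genes). The wild-type calls were Th, Ddc, Slc6a3, Slc18a2 and Maob, and the Igf2enh-/- calls Th, Ddc, Slc18a2, Maoa and Nr4a2. Slc6a3 was not tested within Igf2enh-/- mice, where its mean was under 0.1 CPM. The labels do not tie libraries to mice, so that libraries of the regions were treated as independent.

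Th was higher in striatum. In frontal cortex the lowest, median and highest Th levels were 0.681, 0.844 and 1.16 CPM in wild-type and 0.714, 0.955 and 5.31 CPM in Igf2enh-/- libraries. In striatum they were 1.97, 5.14 and 5.81 CPM in wild-type and 4.61, 4.95 and 6.20 CPM in Igf2enh-/- libraries. The regions did not overlap in wild-type mice, and in Igf2enh-/- mice library 9 alone reached into the striatal range. The log2 difference of striatum minus frontal cortex was 1.98 (SE 0.248, adjusted p = 5.64e-08). Without library 9 it was 2.46 (adjusted p = 1.83e-14), and without libraries 9, 19, 20 and 26 it was 2.57. Two-sided exact permutation tests of the difference of means gave p = 0.00117 in wild-type and p = 0.002 in Igf2enh-/- mice, and p = 0.000777 in the latter without library 9, the smallest that design can give. Of 4 such tests on each of the 9 genes, 36 in all, p-values are given unadjusted.

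Ddc was also higher in striatum and varied little among libraries. Its lowest, median and highest levels in frontal cortex were 2.74, 3.42 and 3.86 CPM in wild-type and 2.82, 3.27 and 4.11 CPM in Igf2enh-/- libraries. In striatum they were 6.22, 7.18 and 8.96 CPM in wild-type and 5.33, 7.33 and 8.58 CPM in Igf2enh-/- libraries. No frontal cortex library reached the lowest striatal one in either genotype. The log2 difference was 1.11 (SE 0.0828, adjusted p = 2.57e-12), and exact permutation gave p = 0.000583 in wild-type and p = 0.000333 in Igf2enh-/- mice, the smallest those designs allow. Over the 9 genes the regions did not overlap for 4 genes in wild-type mice (30.6% of all genes tested) and for 2 in Igf2enh-/- mice (33.7% of all genes tested). These were Th, Ddc, Slc6a3 and Slc18a2 in the former, and Ddc and Nr4a2 in the latter. Without library 9 the Igf2enh-/- count was 4, with Th and Slc18a2 added (35.3% of all genes tested).

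Slc6a3 in both regions and Slc18a2 in frontal cortex were near the floor of the measurement, while Slc18a2 was counted 8 to 149 times per library in striatum. Slc18a2 in frontal cortex had lowest, median and highest levels of 0.0387, 0.114 and 0.229 CPM in wild-type and 0, 0.0954 and 0.615 CPM in Igf2enh-/- libraries, the highest being library 9. In striatum these were 0.315, 0.959 and 4.42 CPM in wild-type and 0.587, 0.807 and 4.13 CPM in Igf2enh-/- libraries. The 2 highest were wild-type library 26 and Igf2enh-/- library 19, and every other striatal library was at or under 1.204 CPM. Slc18a2 had the largest log2 difference between the regions among the 9 genes, 2.95 (SE 0.492, adjusted p = 5.75e-06). Without libraries 19 and 26 it was 2.32 (adjusted p = 1.52e-06), and without libraries 9, 19, 20 and 26 it was 2.96 (adjusted p = 8.88e-10).

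Slc6a3 was counted 0 to 5 times per library in frontal cortex and 1 to 11 times in striatum. Its lowest, median and highest levels were 0, 0.0182 and 0.0378 CPM in wild-type frontal cortex and 0.0685, 0.142 and 0.467 CPM in wild-type striatum. In Igf2enh-/- mice they were 0, 0.0381 and 0.162 CPM in frontal cortex and 0.0303, 0.0931 and 0.233 CPM in striatum. The regions did not overlap in wild-type mice (exact permutation p = 0.0035) and overlapped in Igf2enh-/- mice (exact permutation p = 0.235). Over all libraries the log2 difference was 1.76 (SE 0.508, adjusted p = 0.00321). Slc6a3 averaged 0.0390 CPM in frontal cortex and 0.152 CPM in striatum, so it passed the 0.1 CPM filter only through striatum. Its region calls are therefore weak evidence. In frontal cortex 11 of 12 libraries held 3 or fewer counts, the limit that a count of 0 allows, and library 9 held 5. Whether the region difference itself differed between genotypes did not pass (interaction log2 difference -2.33, unadjusted p = 0.0394, adjusted p = 1).

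Dbh went the other way. It was counted 1 to 10 times per library in frontal cortex and 0 to 8 times in striatum, where 4 of 7 wild-type libraries held none. Lowest, median and highest levels were 0.0768, 0.151 and 0.378 CPM in wild-type and 0.0400, 0.152 and 0.306 CPM in Igf2enh-/- frontal cortex. They were 0, 0 and 0.208 CPM in wild-type and 0.0331, 0.0571 and 0.266 CPM in Igf2enh-/- striatum. The log2 difference was -1.23 (SE 0.430, adjusted p = 0.013), and all groups overlapped. Dbh averaged 0.180 CPM in frontal cortex and 0.0721 CPM in striatum, so it passed the 0.1 CPM filter only through frontal cortex. Without libraries 9, 15 and 20 the call was lost (-1.002, adjusted p = 0.0536). A list of 9 noradrenaline and serotonin neuron markers summed to 4.71 to 9.70 CPM, most of it Gata2, a factor that other cells also make, at 3.665 to 6.267 CPM. The histamine synthesis gene Hdc reached 2.77 CPM. The noradrenaline transporter Slc6a2 and the serotonin transporter Slc6a4 summed to 20 and 28 counts over all libraries.

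Gch1 did not pass between the regions and had overlapping ranges in all 4 groups. Its lowest, median and highest levels were 0.859, 1.10 and 1.46 CPM in wild-type frontal cortex, 0.995, 1.33 and 2.10 CPM in Igf2enh-/- frontal cortex, 0.888, 1.17 and 1.54 CPM in wild-type striatum and 0.831, 1.28 and 1.46 CPM in Igf2enh-/- striatum. The log2 difference was -0.10 (SE 0.118, adjusted p = 0.455).

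Maoa and Maob had small differences between the regions that still passed the test. Maoa, which prefers serotonin and noradrenaline, had lowest, median and highest levels of 32.4, 34.4 and 39.0 CPM in wild-type and 29.6, 32.8 and 35.3 CPM in Igf2enh-/- frontal cortex. In striatum these were 35.0, 37.0 and 40.4 CPM in wild-type and 33.6, 36.4 and 39.2 CPM in Igf2enh-/- libraries. The log2 difference was 0.11 (SE 0.0311, adjusted p = 0.00206). Maob, the main form in astrocytes, had 16.5, 18.4 and 19.0 CPM in wild-type and 16.3, 19.2 and 25.0 CPM in Igf2enh-/- frontal cortex, and 18.6, 20.9 and 21.8 CPM in wild-type and 18.6, 22.4 and 23.8 CPM in Igf2enh-/- striatum. Its log2 difference was 0.15 (SE 0.0504, adjusted p = 0.0122), and the ranges of the regions overlapped for both genes in both genotypes. The summed level of 10 astrocyte genes ran from 4183 to 4987 CPM in frontal cortex and from 3652 to 5111 CPM in striatum.

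Nr4a2 was higher in striatum over all libraries and varied widely among the striatal ones. Lowest, median and highest levels were 8.54, 10.1 and 22.0 CPM in wild-type and 6.52, 10.2 and 19.3 CPM in Igf2enh-/- frontal cortex. In striatum they were 1.65, 18.8 and 77.9 CPM in wild-type and 25.4, 38.2 and 55.7 CPM in Igf2enh-/- libraries. Wild-type libraries 14 and 22, at 1.90 and 1.65 CPM, lay below every frontal cortex library, and wild-type library 16 lay above every other library. The log2 difference over all libraries was 1.49 (SE 0.376, adjusted p = 0.000929). It was 1.74 in Igf2enh-/- mice, where the regions did not overlap (adjusted p = 1.49e-05, exact permutation p = 0.000666). In wild-type mice it was 1.18 (SE 0.701, adjusted p = 0.171, exact permutation p = 0.173). The related receptors Nr4a1 and Nr4a3, which neuronal activity also induces, had log2 differences between the regions of -0.12 (adjusted p = 0.637) and -0.05 (adjusted p = 0.873).

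The striatal Nr4a2 level was highest and lowest in the same libraries as the summed level of markers of neighbouring cells, though not of each marker. Nr4a2 is known as a marker of the claustrum and of cortical layer 6b, which lie against the striatum, and a list of 9 other genes of these cells (Gnb4, Ntng2, Lxn and Oprk1 first) was summed in each library. Libraries 16, 26, 19 and 23 had the highest sums, 405.1, 376.9, 337.6 and 330.2 CPM, and were also the 4 highest in Nr4a2, at 77.9, 52.4, 55.7 and 51.0 CPM. Libraries 22 and 14 had the lowest sums, 180.7 and 191.1 CPM, and the lowest Nr4a2. Gene by gene, Gnb4, Ntng2, Lxn, Ccn2 and Nxph4 were highest among striatal libraries in library 16, and Gng2 in library 26. Oprk1 was highest in library 24, Cplx3 in library 20 and Slc17a8 in library 22. Gng2 was at 170.9 to 209.6 CPM in frontal cortex and 30.4 to 137.9 CPM in striatum. Oprk1 was at 1.63 to 6.52 CPM in frontal cortex and 17.6 to 67.3 CPM in striatum, and Slc17a8 at 4.00 to 5.90 and 13.1 to 35.4 CPM. The sum is therefore not a measure of claustrum and layer 6b cells alone. In frontal cortex the list summed to 266.3 to 328.1 CPM in wild-type and 270.1 to 296.1 CPM in Igf2enh-/- libraries, where Nr4a2 was at 6.52 to 22.0 CPM. Libraries 22 and 14 held the vesicular glutamate transporter Slc17a7 at its lowest, down to 13.7 CPM, against up to 747.9 CPM in library 20. Library 20, though highest in Slc17a7, held 18.8 CPM of Nr4a2. Library 16 was also the striatal library highest in a summed list of 12 immediate-early genes, at 1200 CPM, and in Nr4a1, at 161.2 CPM. Libraries 26, 19 and 23 held 537.2, 622.8 and 445.5 CPM of that list, and libraries 14 and 22 held 919.2 and 698.3 CPM. The part of such tissue or of neuronal activity in the Nr4a2 values was not tested.

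**Figure D2:**
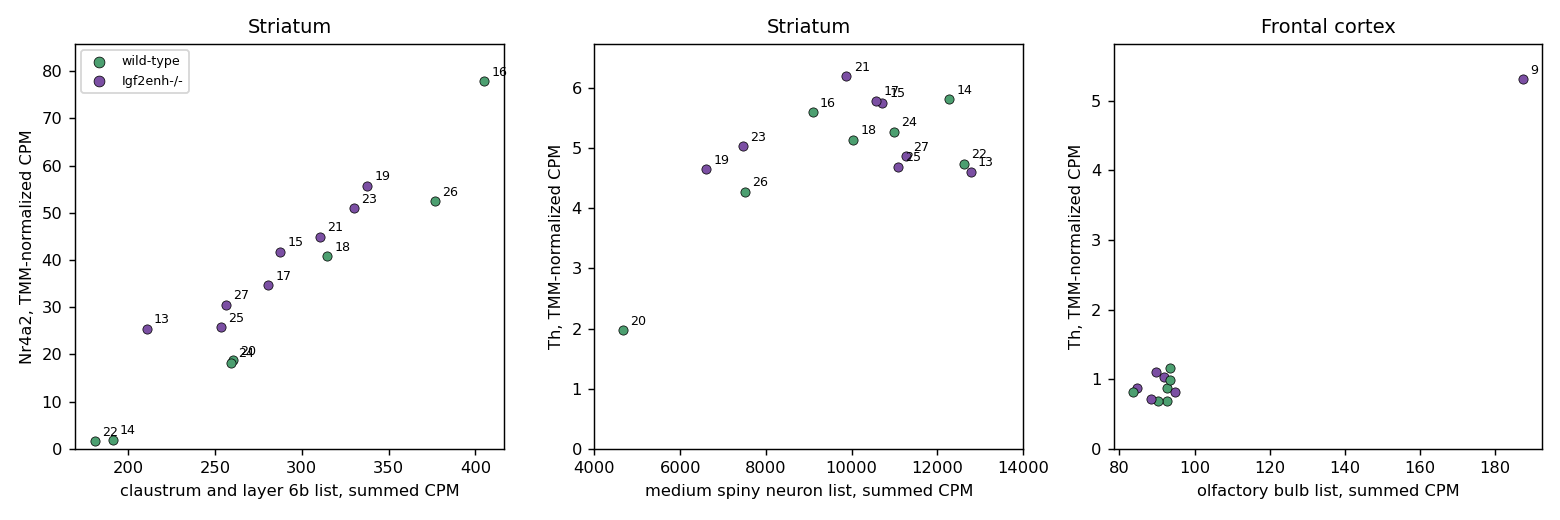
Each point is a library, green for wild-type and purple for Igf2enh-/-, numbered in striatum and for library 9. Left, Nr4a2 against the summed claustrum and layer 6b list in striatum, where libraries 22 and 14 are lowest and library 16 is highest on both axes. Middle, Th against the summed medium spiny neuron list in striatum, where library 20 is lowest on both. Right, Th against the summed olfactory bulb list in frontal cortex, where library 9 stands apart at 187.5 and 5.31 CPM.

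Markers moved with the other outlying values too. In library 9, Th stood at 5.31 CPM beside its olfactory bulb genes, and Th is made by periglomerular cells of the bulb. The 4 members highest in library 9 among frontal cortex libraries were Th, Ddc, Slc6a3 and Slc18a2. In library 20, where Th was 1.97 CPM against at least 4.27 CPM in the other striatal libraries, Drd2 was 134.7 CPM against at least 205.4 CPM elsewhere. In libraries 19 and 26, where Slc18a2 was high, other genes were high too. The neurotrophic factor receptor Ret, on the list of 20 dopamine neuron genes, stood at 18.3 and 13.2 CPM, against at most 4.97 CPM in the other striatal libraries. The transcription factor Sp8, on the olfactory bulb list, stood at 9.66 and 8.60 CPM, against at most 2.44 CPM. Of the 14 olfactory bulb genes, 5 were highest among striatal libraries in library 19 or 26, which were Eomes, Sp8, Pax6, Calb2 and Lhx1. Of the dopamine neuron list, 5 genes were highest among striatal libraries in library 19 or 26, which were Ret, Gfra1, Sncg, Slc17a6 and Foxa1. Foxa1 held 1 count in all, and Sncg was at 1.305 CPM in library 26, against a striatal median of 1.397 CPM. Other genes of the list were low in libraries 19 and 26. Drd2 was at 212.8 and 205.4 CPM, against a striatal median of 304.7 CPM, and Calb1 at 208.6 and 185.3 CPM, against 263 CPM. Th was at 4.65 and 4.27 CPM, against a striatal median of 5.03 CPM. Gfra1 was at 63.0 and 69.3 CPM in these libraries, against at most 51.4 CPM in the others. Pitx3, which marks midbrain dopamine neurons, was at 0.0369 and 0.0593 CPM there and highest in library 15, at 0.109 CPM. The part of other tissue in these values was not tested.

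**Figure D3:**
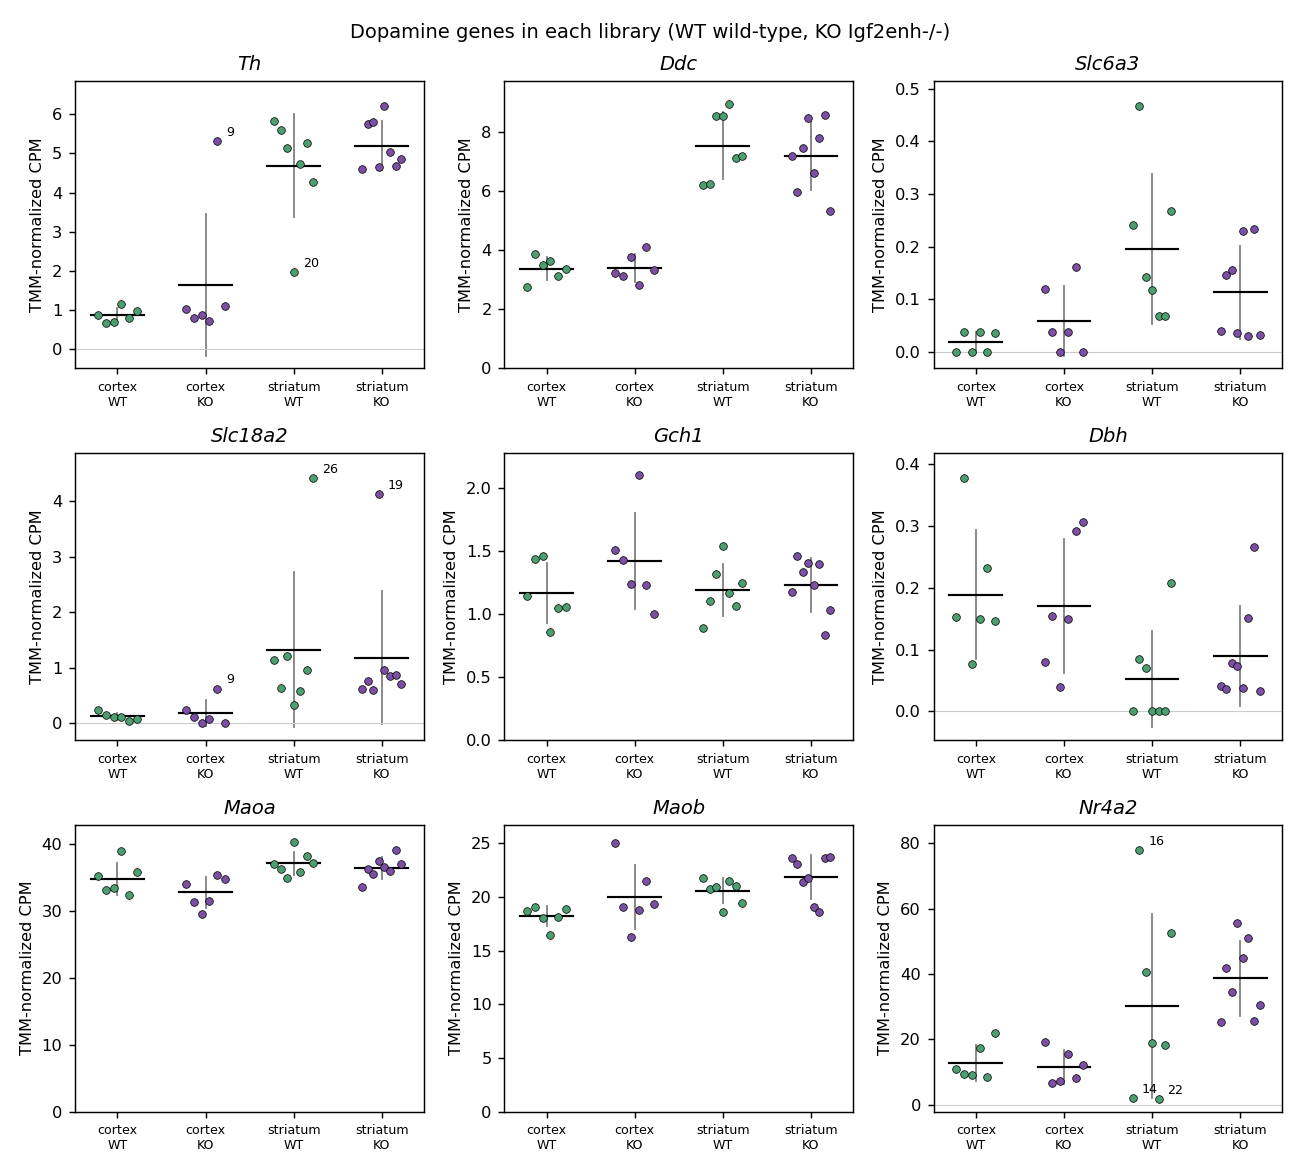
TMM-normalized CPM of the 9 genes in each library by region and genotype, with the group mean (black line) and SD (grey bar), green for wild-type and purple for Igf2enh-/-. Th, Ddc and Slc18a2 are higher in striatum, library 9 is the high frontal cortex point for Th, and libraries 14 and 22 are the low striatal points for Nr4a2.

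Between genotypes none of the 9 genes was called in either region. The frontal cortex fit, with genotype and sex as terms and genes of at least 1 CPM in every library, called 53 of 13936 genes (0.38%) and none of its 4 testable members. In striatum it called 5 of 13875 genes (0.036%) and none of its 5. At an unadjusted p under 0.05 these fits held 1877 and 1395 genes, and no member was among them. A fit with the filter lowered to a mean of 0.1 CPM, so that low members could be tested, called 0 of 8 members in frontal cortex (0.302% of all genes) and 0 of 8 in striatum (0.0386% of all genes). edgeR's likelihood ratio test and DESeq2 called 0 members in either region.

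Th is the gene the study's question turns on. The paper reported less TH protein and less dopamine in Igf2enh-/- striatum, with no such change in frontal cortex. The values here are mRNA of the pieces of tissue, an unlike measure, and do not answer for protein or dopamine. Th averaged 0.867 ± 0.183 CPM (SD, n = 6) in wild-type frontal cortex. The Igf2enh-/- mean there was 1.64 ± 1.80 CPM (SD, n = 6). The fitted log2 difference was 0.89 (SE 0.419, unadjusted p = 0.0489, adjusted p = 0.433). Without library 9 the Igf2enh-/- mean was 0.909 ± 0.161 CPM (SD, n = 5), and the log2 difference fell to 0.09 (adjusted p = 0.923). The exact permutation p was 0.335 with library 9 and 0.68 without it. In striatum Th was 4.69 ± 1.30 CPM (SD, n = 7) in wild-type and 5.20 ± 0.623 CPM (SD, n = 8) in Igf2enh-/- mice, a log2 difference of 0.16 (SE 0.162, adjusted p = 0.812, exact permutation p = 0.39). Leaving out wild-type library 20 raised the wild-type mean to 5.14 ± 0.565 CPM (SD, n = 6) and brought the log2 difference to 0.03. The ranges of the genotypes overlapped in both regions.

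The other synthesis genes did not pass either, and their genotype ranges overlapped. Ddc had log2 differences of 0.02 (SE 0.112) in frontal cortex and -0.06 (SE 0.116) in striatum, with adjusted p-values of 0.968 and 0.919. Gch1 had 0.29 (SE 0.186) and 0.06 (SE 0.144), and Dbh had -0.14 (SE 0.441) in frontal cortex. For the transporters Slc6a3 and Slc18a2 the errors were wide. Slc6a3 in striatum had -0.83 (SE 0.473, adjusted p = 0.696), with 0.196 ± 0.143 CPM (SD, n = 7) in wild-type and 0.113 ± 0.0888 CPM (SD, n = 8) in Igf2enh-/- mice. Slc18a2 had 0.60 (SE 0.733) in frontal cortex and -0.16 (SE 0.512) in striatum, and its sign turned to -0.58 without library 9 and to 0.46 without library 26. For striatal Slc18a2 the spread moved with libraries 19 and 26, as the SD in Igf2enh-/- mice was 1.198 CPM with library 19 and 0.139 CPM without it, and in wild-type mice 1.40 CPM with library 26 and 0.348 CPM without it.

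Maoa and Maob gave the tightest limits. The Maoa log2 difference was -0.08 (SE 0.0506, adjusted p = 0.499) in frontal cortex and -0.01 (SE 0.0392, adjusted p = 0.941) in striatum. For Maob it was 0.14 (SE 0.0843, adjusted p = 0.483) and 0.09 (SE 0.0583, adjusted p = 0.677). Nr4a2 had -0.14 (SE 0.280, adjusted p = 0.871) in frontal cortex and 0.39 (SE 0.589, adjusted p = 0.884) in striatum. The 2 lowest striatal Nr4a2 libraries were wild-type, and without library 22 its log2 difference was 0.14, without library 14 it was 0.20 and without library 16 it was 0.83. None of the 9 exact permutation tests in either region gave a p under 0.05.

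**Figure D4:**
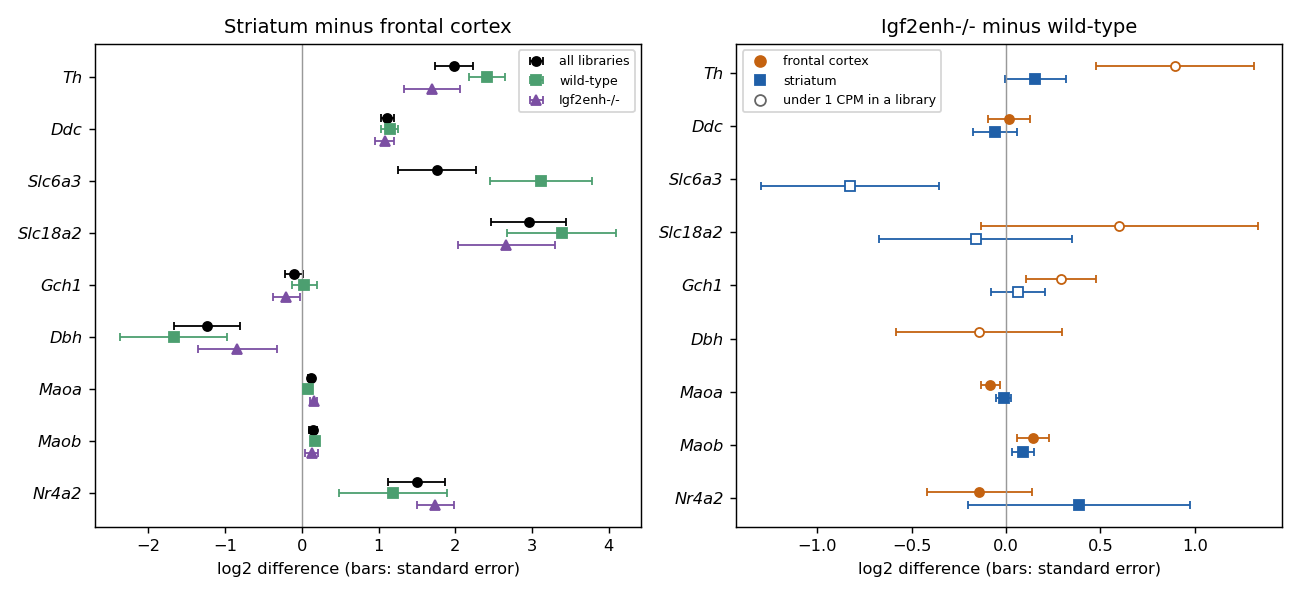
Log2 differences with standard errors from the edgeR fits, for striatum minus frontal cortex (left; circles all libraries, squares wild-type, triangles Igf2enh-/-) and for Igf2enh-/- minus wild-type (right; circles frontal cortex, squares striatum, open symbols genes under 1 CPM in a library). On the left Slc18a2 has the largest difference over all libraries at 2.95 and Gch1 lies at -0.10, and on the right Th in frontal cortex lies at 0.89 with library 9 included.

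The genotype difference itself was compared between regions by an interaction term over all 27 libraries. It called 0 of 20836 genes (0%), with 655 at an unadjusted p under 0.05, and 0 of the 9 members. The term for Th was -0.78 (SE 0.486, adjusted p = 1) and became 0.10 without library 9. Sex called 0 members in frontal cortex (0.0431% of all genes) and in striatum (0.0432% of all genes). Maoa and Maob on the X chromosome had log2 differences of males minus females of 0.08 (SE 0.0506) and -0.04 (SE 0.0843) in frontal cortex and 0.04 (SE 0.0392) and -0.11 (SE 0.0582) in striatum. A genotype by sex term called no member in either region, with 4 tested in frontal cortex and 5 in striatum.

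The wider pathway was followed in a list of 26 genes of tetrahydrobiopterin and catecholamine metabolism. Between the regions 23 were tested, of which 7 were higher and 10 lower in striatum, beside 68.3% called of all genes, with a median log2 difference of -0.01 against 0.01 over all genes. Those higher in striatum included Qdpr, which regenerates tetrahydrobiopterin (0.80, adjusted p = 1.6e-09), Pts, which acts after Gch1 in its synthesis (0.24), Aldh1a1, which oxidizes the aldehyde of dopamine (0.76), and Pnmt, which turns noradrenaline into adrenaline (2.67). Pnmt stayed low, at 0.276 to 1.61 CPM in wild-type striatum. Lower in striatum were Cyb561 (-0.49), which supplies electrons to Dbh in vesicles, the amino acid transporter genes Slc3a2 (-0.44), Slc7a8 (-0.51) and Slc16a10 (-1.16), and Ywhae (-0.16), a 14-3-3 protein. For genotype 0 of 18 genes tested passed in frontal cortex (0.38% of all genes) and 0 of 17 in striatum (0.036% of all genes).

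A list of 20 genes of dopamine neuron identity was followed in the same way. Of 15 tested between the regions, 7 were higher and 4 lower in striatum, beside 68.3% called of all genes, with a median log2 difference of 0.12 against 0.01 over all genes. Drd2, the dopamine receptor of both dopamine neurons and medium spiny neurons, was the extreme, at 134.7 to 373.1 CPM in wild-type striatum and 0.653 to 1.12 CPM in wild-type frontal cortex. Slc10a4, a vesicle protein of monoamine and cholinergic neurons, had a log2 difference of 6.86, En2 1.49 and Gfra1 0.79. The midbrain factors Pitx3, Lmx1a and En1 summed to 18, 43 and 45 counts over all 27 libraries, and Foxa1 and Foxa2 to 1 and 2. Otx2, which choroid plexus also makes, was at 0 in every wild-type frontal cortex library and reached 11.8 CPM in striatum library 15. Chrna6 (-2.08), Lmx1b (-2.08), Slc17a6 (-1.25) and Ntsr1 (-0.67) were lower in striatum. For genotype none of 8 genes passed in frontal cortex (0.38% of all genes) and none of 9 in striatum (0.036% of all genes).

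The genes whose levels ran most like those of a member were found by Pearson correlation of log2(CPM + 0.5) over the libraries of a region, as a description with no test. In the 12 frontal cortex libraries the genes most like Th were Pbx3 (r = 0.96), A430105I19Rik (r = 0.95) and Calb2 (r = 0.93), all highest in library 9, and without that library they were others, led by Tuba1a (r = 0.90). In the 15 striatum libraries they included Synpr (r = 0.94) and Sall2 (r = 0.91), and without library 20 neither remained among the first 3. Slc18a2 ran with Zic1 (r = 0.94), Prkcd (r = 0.93) and Zic4 (r = 0.93) in striatum, and without libraries 19 and 26 with others, led by Rragb (r = 0.85). Nr4a2 ran with Trp53i11 (r = 0.95), Cbln1 (r = 0.95) and Ntng2 (r = 0.93) there. Without library 20 it ran with Bdnf (r = 0.99), Rtn4rl2 (r = 0.97) and Slc17a7 (r = 0.97). The points of each correlation share library depth and tissue makeup.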

How the data were processed

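Ribosome-depleted total RNA was sequenced as single-end reads. After trimming (Trim Galore 0.5.0) and alignment by STAR to GRCm38, the authors deposited raw counts per GENCODE vM15 gene, 1 table per region. Whether counting used strand is not given in the sources used here. Symbols were joined by Ensembl identifier, with 32688 of 52636 identifiers matched.

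Counts were normalized by TMM and tested with edgeR 4.0.16 (quasi-likelihood, R 4.3.3) with Benjamini-Hochberg adjustment over all genes tested. Genotype was fitted within each region with sex as a term, on genes of at least 1 CPM in every library, and the regions together on genes of mean at least 0.1 CPM. The latter filter was also used for members under the first. Exact permutation tests were two-sided on mean CPM. On simulated data of 200 changed genes, 98% (frontal cortex genotype), 92.5% (striatum genotype) and 77% (regions) of those changed by a log2 of 0.8 were recovered. These genes were drawn at random from all that passed each filter, and no outlying library was simulated. The rates therefore do not hold for members under the filter or with wide errors, such as Nr4a2 in striatum (SE 0.589). Alternatives were DESeq2 1.42.0, other filters and scalings, and each library left out.

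All 9 members are named with their values. From each pathway list up to 5 genes of smallest p in each direction are named, and from each other list the summed level and its first 4 genes. Some genes that these rules would name are not reported here. Other genes named beside an outlying library were chosen after their values were seen. The members and lists were chosen with earlier results of these data known. The labels do not say which libraries share a mouse, so p-values measure the spread between these libraries, which may be partly technical.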

Additional observations from a re-analysis of the deposited data

Results flagged for a closer look

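In 56 sets of 4 to 10 libraries (a member or a marker list in a group), 9 held a library far from the others by Dixon's criterion, which chance meets in about 1 in 20 sets. Th in Igf2enh-/- frontal cortex was 5.307 CPM in library 9, with the next at 1.11 CPM, and the olfactory bulb list summed to 187.5 CPM in the same library, with the next at 94.78 CPM. Th in wild-type striatum was 1.971 CPM in library 20, with the next lowest at 4.272 CPM. Slc18a2 was 4.421 CPM in wild-type striatum library 26 (next 1.204 CPM) and 4.13 CPM in Igf2enh-/- striatum library 19 (next 0.9567 CPM). Dbh was 0.2077 CPM in wild-type striatum library 26, with the next at 0.08484 CPM. The olfactory bulb list was low in wild-type frontal cortex library 10, at 83.69 CPM against 90.32 CPM for the next. The medium spiny neuron list was low in Igf2enh-/- frontal cortex library 1, at 343.5 CPM against 389.2 CPM. The cortical projection neuron list was high in Igf2enh-/- striatum library 23, at 1311 CPM against 981.4 CPM. What set these libraries apart was not tested.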

How the results depend on the processing

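Of 1054 alternative values, 1005 kept their direction and side of the threshold, or stayed close to the reported value. No alternative called a member for genotype. Members called between regions numbered 8, and 4 when every library had to reach 1 CPM, since fewer members were then tested. Leaving out 1 library gave 7 to 8, 4 to 6 in wild-type and 5 to 6 in Igf2enh-/- mice. Each member called with all libraries stayed called in every such fit that tested it. The lower counts came where Slc6a3 fell under the filter, as it was tested in 20 of 27 fits over both genotypes and 12 of 13 in wild-type mice. Genes called for genotype in frontal cortex numbered 53, and 232 by likelihood ratio test, 247 by DESeq2, 459 with no filter, and 8 to 96 with 1 library left out (10 without library 9). In striatum they numbered 5, and 56 by likelihood ratio test, 112 by DESeq2, 13 with filterByExpr, 10 with no filter, 8 with the low filter, 3 without sex, 3 without libraries 19 and 26, and 3 to 8 with 1 library left out. Dbh between regions lost its call without libraries 9, 15 and 20 (-1.002, adjusted p = 0.0536). It gained one in wild-type mice without library 6 (-1.83, adjusted p = 0.0443) or 26 (-2.72, adjusted p = 0.00448) and in Igf2enh-/- mice without library 25 (-1.39, adjusted p = 0.0116), as did Maob there without library 1 (0.20, adjusted p = 0.0454).

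Igf2 for genotype lost its call in frontal cortex without library 9 (0.71, adjusted p = 0.0776) and gained one in striatum without library 15 (0.46, adjusted p = 0.00899), settings chosen after the values were seen, as were those without libraries 19 and 26.

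Signs turned only in uncalled differences. With 1 library left out, the genotype log2 difference ran in frontal cortex from -0.055 to 0.072 for Ddc and from -0.46 to 0.036 for Nr4a2, and in striatum from -0.036 to 0.006172 for Maoa, from -0.11 to 0.009037 for Ddc and from -0.72 to 0.46 for Slc18a2. Slc18a2 in frontal cortex was -0.58 without library 9. Gch1 between regions in wild-type mice ran from -0.046 to 0.12. The interaction became 0.10 for Th and 0.23 for Slc18a2 without library 9, and the frontal cortex permutation differences of Ddc (exact p = 0.591) and Slc18a2 (exact p = 0.522) turned. The causes were not tested. DESeq2 gave Th no adjusted p between regions. No paired analysis was possible because the labels give each library a number of its own and tie none to a mouse. Members under 1 CPM rest on few counts.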
